A study of Sus scrofa with 4 samples.

Results

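The genes of cholesterol synthesis, uptake control and efflux were followed in pig follicle granulosa cells after interference with YTHDF2. They were chosen by symbol: 28 genes were listed, namely the enzymes from acetyl-CoA to cholesterol, the SREBP regulators, carriers and esterifying enzymes of cholesterol, and targets of the liver X receptors (LXR). Of these, 27 stood under their symbols among the 20491 genes of the deposited table, and LSS was not analysed here. All 27 passed the filter on low counts and were among the 15552 genes tested. The uptake receptors themselves are not among the 28 and are given from a separate list of pathway genes.

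The cells were pig (Sus scrofa) granulosa cells from ovarian follicles. They line the ovarian follicle and nourish the oocyte, and their RNA was sequenced in bulk. The 4 libraries form 2 groups of 2: siYTHDF2, labelled as transfected to interfere with YTHDF2, and control, transfected with a negative control. The series concerns whether YTHDF2 mediates the action of BDNF, a neurotrophin, on granulosa cell proliferation, but no BDNF treatment is named for any library. Neither the time after transfection, the number of animals, pooling of cells nor the siRNA sequence is given, and nothing says that the libraries came from separate cultures. P-values therefore reflect the spread among 4 libraries alone, and that spread may be technical.

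YTHDF2 is a cytoplasmic protein that binds N6-methyladenosine in mRNA and speeds the decay of the bound transcripts. Cholesterol is made from acetyl-CoA through mevalonate, farnesyl diphosphate, squalene and lanosterol, and most of the enzymes are transcribed under SREBP2. When sterols are scarce, SCAP escorts SREBP from the endoplasmic reticulum to the Golgi for cleavage, and INSIG proteins hold SCAP back when sterols are plentiful. When oxysterols accumulate, LXR raises the exporters ABCA1 and ABCG1 and the ubiquitin ligase MYLIP, which degrades lipoprotein receptors. Granulosa cells use cholesterol for membranes as they divide and, after luteinization, for progesterone.

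Total counts were 47209177 and 54203550 in the siYTHDF2 libraries, against 53331003 and 54841851 in the control libraries. YTHDF2 itself was counted 1122 and 1279 times in the siYTHDF2 libraries, against 3660 and 3356 times in the control libraries, and its log2 fold change was -1.49 (edgeR, SE 0.09, adjusted p = 1.49e-05). The granulosa markers FSHR and FOXL2 were detected in every library, FSHR at 10.2 and 11.3 CPM (the count relative to the TMM-scaled library total) in the siYTHDF2 libraries and at 11.5 and 10.3 CPM in the control libraries. Of 10 granulosa markers tested, SERPINE2 was higher (log2 fold change 0.98, adjusted p = 2.29e-05), INHBB was lower (log2 fold change -0.69, adjusted p = 0.00213) and 8 were not called. CYP19A1, the aromatase that defines estrogen-producing granulosa cells, was listed at 0 in replicate 1 of both groups and stood at 0.109 CPM in siYTHDF2 replicate 2 and 0.204 CPM in control replicate 2. CYP11A1, which cleaves the side chain of cholesterol to start steroid synthesis, averaged 28.2 ± 5.34 CPM in the siYTHDF2 libraries and 66.6 ± 7.55 CPM in the control libraries (SD, n = 2 each), with no overlap (edgeR log2 fold change -1.24, adjusted p = 0.000316). It was the only one called of 3 luteal and steroidogenic markers tested in edgeR (33.3% lower, against 10.6% of all genes tested). STAR (adjusted p = 0.814) and LHCGR (adjusted p = 0.542) were not called and stood below 1 CPM in every library. Of 8 theca and stroma markers in the table, 7 were lower with siYTHDF2 (87.5%, against 10.6% of all genes tested), and TAGLN was not called (log2 fold change -0.073, adjusted p = 0.534). The summed level of the 8 was 11580 and 11218 CPM in the siYTHDF2 libraries, against 20451 and 21100 CPM in the control libraries. Most of that sum was ACTA2, with means of 6463 CPM in siYTHDF2 and 12474 CPM in control. Of 3 endothelial markers tested in edgeR, 1 was higher (33.3%, against 9.05% of all genes tested) and 2 were not called. VWF was the higher one: 24 and 30 counts in the siYTHDF2 libraries, against 0 in both control libraries (adjusted p = 0.0118). PECAM1 was not called (adjusted p = 0.258): 12.4 and 11.9 CPM with siYTHDF2, against 13.7 and 14.5 CPM in the control libraries. The part of theca, stroma and endothelial cells in the results below was not tested. In RNA of whole cultures fewer cells of a type and less RNA per cell cannot be told apart.

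With siYTHDF2, 6 of the genes fell and none rose. The genes that fell were HMGCS1 and TM7SF2 among the enzymes, SREBF1 and SCAP among the regulators, the sterol carrier STARD4, and the exporter ABCG1. A gene is said to have risen or fallen where edgeR's two-sided quasi-likelihood test gave an adjusted p under 0.05, with Benjamini-Hochberg adjustment over all genes tested. The 6 lower genes are 22.2% of the 27, against 10.6% of all genes tested. The count of higher genes was 0, against 9.05% of all genes tested; DESeq2 also gave 0 higher, and no member was higher at an unadjusted p under 0.05. Counted in either direction, 19.6% of all genes tested were called, so the share of called genes among the members was close to that of the transcriptome, while the calls lay on one side. The median log2 fold change was -0.16 over the 27 genes and 0.00069 over all genes tested. The median of the 27 was -0.099 without control replicate 2 and -0.21 without control replicate 1, and 22 of the 27 genes were higher in control replicate 2 than in control replicate 1. Among the 27, 15 had both siYTHDF2 libraries below both control libraries, against 30.0% of all genes tested, and 4 had both above, against 30.1%.

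**Figure D1:**
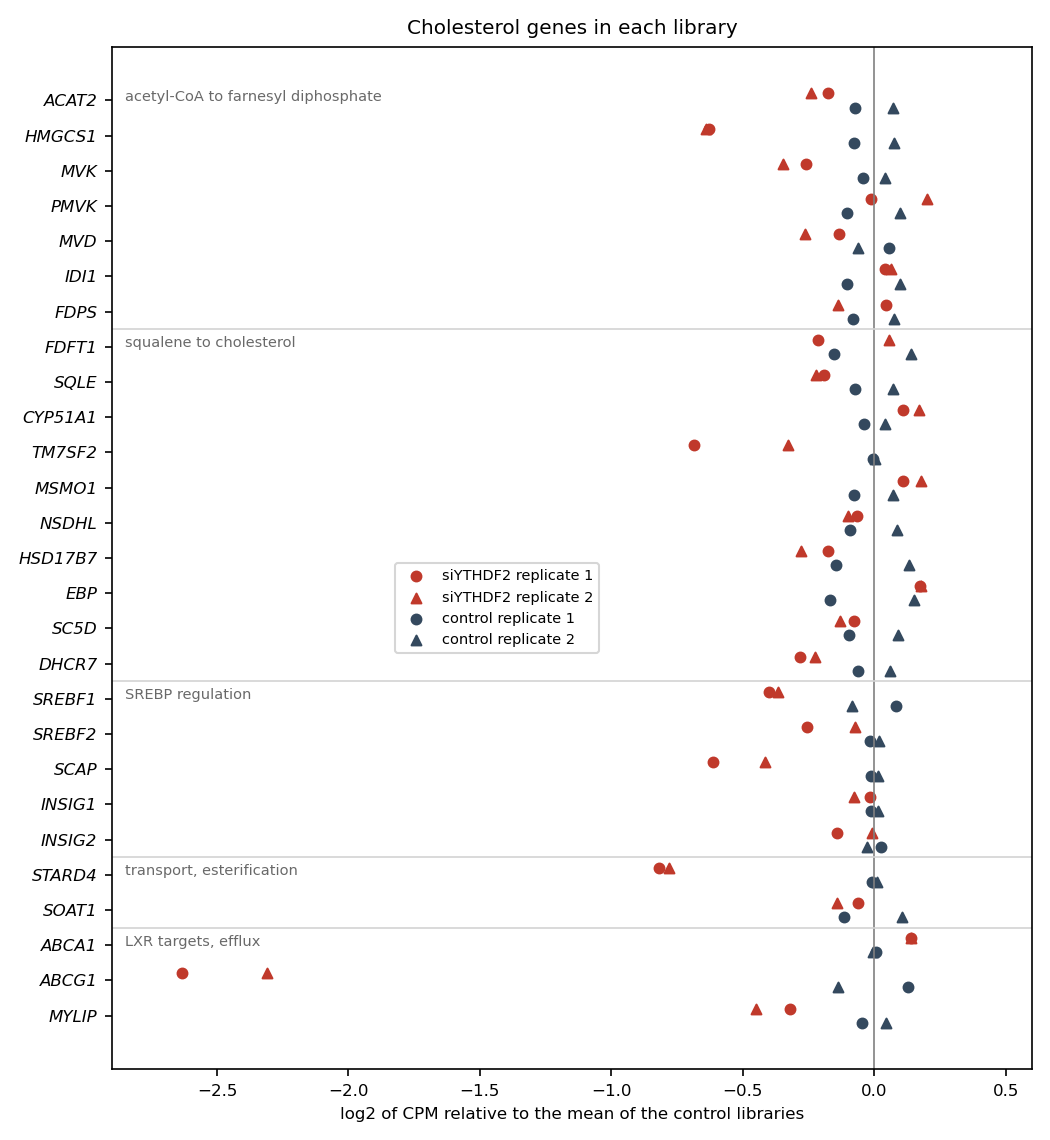
CPM of each gene in each of the 4 libraries on a log2 scale, relative to the mean of the control libraries; red, siYTHDF2; dark blue, control; circles, replicate 1; triangles, replicate 2; grey lines separate the roles. The siYTHDF2 symbols of ABCG1, STARD4, HMGCS1 and SCAP stand apart from their control symbols to the left, whereas those of most sterol enzymes lie among or next to them.

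The 17 synthesis enzymes in the table did not move as a block. Of the 17, 2 fell, none rose and 15 were not called, and their median log2 fold change was -0.10. The share that fell, 11.8%, was close to the 10.6% of all genes tested, and 9.05% of all genes tested rose. Their summed level was 1125 and 1166 CPM in the siYTHDF2 libraries, against 1174 and 1330 CPM in the control libraries, so that both siYTHDF2 sums lay below both control sums by less than the gap between the control libraries. In 16 of the 17 enzymes control replicate 2 was above control replicate 1, whereas 51.4% of all genes tested were. The enzymes' median depended on that library: it was -0.0083 without control replicate 2 and -0.20 without control replicate 1.

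In the first stage, from acetyl-CoA to farnesyl diphosphate, HMGCS1 fell. HMGCS1 is the cytosolic synthase that makes HMG-CoA, the substrate of the rate-limiting reductase. Its level was 128 and 127 CPM in the siYTHDF2 libraries, against 187 and 208 CPM in the control libraries. The groups did not overlap, and the siYTHDF2 mean was 0.645 of the control mean. The log2 fold change was -0.63 (SE 0.07, adjusted p = 0.000453) and passed in 12 of 13 alternative analyses, the exception being edgeR with neither trend nor robust shrinkage of the dispersions (adjusted p = 0.0603). The gene, ENSSSCG00000016872, lies on chromosome 16 from 27936218 to 27957193 on the minus strand in the deposited table, for which no build is named.

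The other genes of this stage were not called. ACAT2, the cytosolic thiolase that makes acetoacetyl-CoA, stood at 77.5 and 74.2 CPM in the siYTHDF2 libraries, against 83.2 and 91.9 CPM in the control libraries (log2 fold change -0.21, 95% interval -0.38 to -0.033, adjusted p = 0.0931). MVK, mevalonate kinase, stood at 17.0 and 15.9 CPM in the siYTHDF2 libraries, against 19.7 and 20.9 CPM in the control libraries (log2 fold change -0.30, 95% interval -0.55 to -0.055, adjusted p = 0.0856). In both genes the siYTHDF2 libraries were the lower pair with no overlap, and the interval of the single gene lay below 0, but neither passed the adjustment. MVD, the decarboxylase that yields isopentenyl diphosphate, had the same order of libraries with a log2 fold change of -0.20 (adjusted p = 0.253).

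PMVK, IDI1 and FDPS had overlapping groups. PMVK, the second kinase of the pathway, had a log2 fold change of 0.098 with a 95% interval from -0.31 to 0.51. IDI1, the isomerase of isopentenyl diphosphate, had one of 0.053 with an interval from -0.14 to 0.25. FDPS, which makes farnesyl diphosphate, had one of -0.045 with an interval from -0.24 to 0.15. Each interval leaves room for changes in both directions, and the one of PMVK, with 279 to 375 counts per library, is the widest among the enzymes.

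Squalene and sterol enzymes showed one call, TM7SF2, an enzyme of the endoplasmic reticulum that reduces the sterol C14 double bond. TM7SF2 stood at 14.7 and 18.8 CPM in the siYTHDF2 libraries, against 23.6 and 23.7 CPM in the control libraries. The groups did not overlap, and the siYTHDF2 libraries differed from each other far more than the control libraries did. The log2 fold change was -0.49 (SE 0.13, adjusted p = 0.0297). In edgeR with neither trend nor robust shrinkage of the dispersions it was not called (adjusted p = 0.143). It no longer passed without siYTHDF2 replicate 1 (-0.33, adjusted p = 0.163), without control replicate 1 (adjusted p = 0.0589) and without control replicate 2 (adjusted p = 0.0537). LBR, a nuclear envelope protein that catalyses the same C14 reduction and comes from the list of other pathway genes, moved the other way. LBR stood at 37.0 and 40.7 CPM in the siYTHDF2 libraries, against 28.3 and 26.9 CPM in the control libraries (log2 fold change 0.49, SE 0.10, adjusted p = 0.00810). The LBR call was kept in 10 of 13 alternatives, and limma on log2(FPKM + 1) was among those that lost it (adjusted p = 0.128).

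The enzymes CYP51A1, MSMO1 and EBP, which act before or after this step, had both siYTHDF2 libraries above both controls without being called. CYP51A1, the lanosterol demethylase, stood at 104 and 108 CPM in the siYTHDF2 libraries, against 93.6 and 98.9 CPM in the control libraries (log2 fold change 0.14, 95% interval -0.016 to 0.30, adjusted p = 0.197). MSMO1, which oxidises the C4 methyl groups, stood at 107 and 112 CPM in the siYTHDF2 libraries, against 94.1 and 104 CPM in the control libraries (log2 fold change 0.14, adjusted p = 0.225). EBP, the sterol isomerase, stood at 55.7 and 55.8 CPM in the siYTHDF2 libraries, against 43.9 and 54.8 CPM in the control libraries (log2 fold change 0.18, adjusted p = 0.288). EBP passed only when control replicate 2 was left out (log2 fold change 0.34, adjusted p = 0.0348).

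Of the remaining sterol enzymes, SQLE, DHCR7 and HSD17B7 had both siYTHDF2 libraries below both controls, and FDFT1, NSDHL and SC5D had overlapping groups. SQLE, squalene epoxidase and a rate-limiting step after the reductase, stood at 71.2 and 69.8 CPM in the siYTHDF2 libraries, against 77.2 and 85.4 CPM in the control libraries (log2 fold change -0.21, adjusted p = 0.0946). DHCR7, which completes cholesterol from 7-dehydrocholesterol, stood at 22.9 and 23.8 CPM in the siYTHDF2 libraries, against 26.7 and 29.0 CPM in the control libraries (log2 fold change -0.25, adjusted p = 0.118). HSD17B7, the 3-keto sterol reductase, had a log2 fold change of -0.23 (adjusted p = 0.327).

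FDFT1, squalene synthase, had the largest counts of all 27 genes and a wide spread within each group. FDFT1 stood at 235 and 283 CPM in the siYTHDF2 libraries, against 245 and 300 CPM in the control libraries. In both groups replicate 2 was the higher library by more than the groups differed, and the log2 fold change was -0.071 (95% interval -0.32 to 0.18). The dehydrogenase NSDHL had a log2 fold change of -0.083 (95% interval -0.31 to 0.14), and the desaturase SC5D one of -0.10 (95% interval -0.29 to 0.085).

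**Figure D2:**
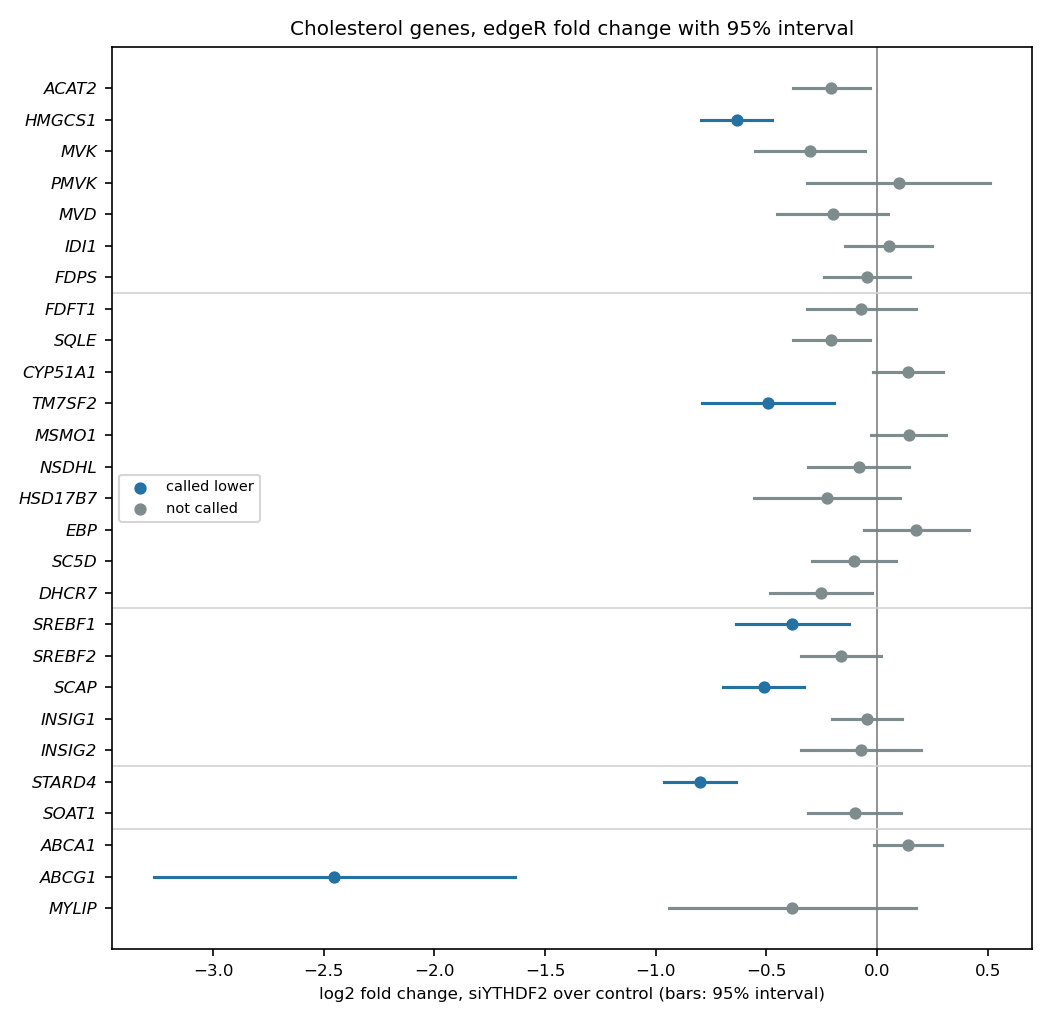
Log2 fold change of siYTHDF2 over control for each gene, with its 95% interval from the edgeR fit; blue, called lower at an adjusted p under 0.05; grey, not called; genes run by role from ACAT2 at the top to MYLIP at the bottom. ABCG1 lies at -2.45 with the widest interval, STARD4 at -0.80 and HMGCS1 at -0.63, and no gene lies above 0.18.

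Levels could be ranked per length from the deposited FPKM values. FDPS was the most abundant of the genes at 47.5 and 48.4 FPKM in the siYTHDF2 libraries, against 48.9 and 55.2 FPKM in the control libraries, followed by EBP, CYP51A1, MSMO1 and IDI1 with means of 36.9, 32.8, 32.4 and 29.0 FPKM over the 4 libraries. The ranges of EBP, CYP51A1 and MSMO1 overlapped, so their order is not resolved. The range of IDI1 overlapped those of CYP51A1 and MSMO1 and of genes ranked below it, so its place is not resolved either. At the other end ABCG1 had a mean of 0.201 FPKM, MYLIP 0.755 and MVK 1.23. The FPKM of ABCA1, MVK and NSDHL rests on long gene models. Count, FPKM and total count together imply lengths of 15827, 15020 and 14956 bases for these genes, against 1426 bases for EBP.

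Among the SREBP regulators SCAP and SREBF1 fell, and SREBF2, INSIG1 and INSIG2 were not called. SCAP is the sterol-sensing escort of SREBP. SCAP stood at 67.3 and 77.2 CPM in the siYTHDF2 libraries, against 102 and 104 CPM in the control libraries. Both siYTHDF2 libraries were below both controls by more than either pair differed internally. The log2 fold change was -0.51 (SE 0.08, adjusted p = 0.00275), and it was lost in 1 of 13 alternatives, the same one (adjusted p = 0.0868).

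SREBF1 encodes SREBP1, the family member that favours fatty acid genes. SREBF1 stood at 15.7 and 16.1 CPM in the siYTHDF2 libraries, against 21.9 and 19.5 CPM in the control libraries. The groups did not overlap, and the gap between the control libraries was larger than that between the siYTHDF2 libraries. Its log2 fold change, -0.38 with an SE of 0.11 (adjusted p = 0.0436), was the call nearest the threshold and passed in 4 of 13 alternatives. It was lost in DESeq2 (adjusted p = 0.0740) and when replicate numbers were blocked (adjusted p = 0.0707). It was also lost without control replicate 1 (adjusted p = 0.216), siYTHDF2 replicate 1 (adjusted p = 0.138) or siYTHDF2 replicate 2 (adjusted p = 0.0942).

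SREBF2 encodes SREBP2, the main activator of the synthesis enzymes. It stood at 72.7 and 82.6 CPM in the siYTHDF2 libraries, against 85.9 and 88.0 CPM in the control libraries. The groups did not overlap, yet siYTHDF2 replicate 2 came close to the controls, and the log2 fold change of -0.16 (95% interval -0.34 to 0.019) was not called (adjusted p = 0.199). INSIG1, which is itself an SREBP target and retains SCAP in the endoplasmic reticulum, was nearly level at 83.0 and 79.7 CPM in the siYTHDF2 libraries, against 83.2 and 84.8 CPM in the control libraries. Its log2 fold change was -0.046 with a 95% interval from -0.20 to 0.11, so a fall as large as that of HMGCS1 lay outside it. INSIG2, the paralog that does not depend on SREBP, had overlapping groups and a log2 fold change of -0.073 (95% interval -0.34 to 0.20). Per length, INSIG1 exceeded INSIG2 in FPKM by 6.45-fold and 5.65-fold in the siYTHDF2 libraries and by 5.76-fold and 6.09-fold in the control libraries, and these ratios overlapped.

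STARD4 gave the smallest p of the 27 genes. STARD4 is a soluble carrier that moves cholesterol between membranes, and it is a known SREBP2 target. It stood at 47.0 and 48.2 CPM in the siYTHDF2 libraries, against 82.3 and 83.5 CPM in the control libraries. Each pair lay within a few percent of its mean, and the siYTHDF2 mean was 0.574 of the control mean. The log2 fold change was -0.80 (SE 0.07, 95% interval -0.96 to -0.64, adjusted p = 0.000128), and it passed in all 13 alternatives, where it ranged from -0.86 to -0.73. The gene, ENSSSCG00000031518, lies on chromosome 2 from 116241866 to 116256953 on the minus strand in the deposited table. SOAT1, which esterifies cholesterol for storage, stood at 52.1 and 49.3 CPM in the siYTHDF2 libraries, against 50.2 and 58.6 CPM in the control libraries, with overlapping groups (log2 fold change -0.10, 95% interval -0.31 to 0.11).

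Read as SREBP2 targets, the enzymes together with INSIG1, STARD4 and SREBF2 itself gave 3 lower and 0 higher of 20 tested genes. That is 15% lower, against 10.6% of all genes tested, and the median log2 fold change was -0.13. The 3 were HMGCS1, TM7SF2 and STARD4. At an unadjusted p under 0.05 there were 7 lower and 0 higher, against 16.9% lower and 16.1% higher among all genes tested. The targets were thus spread from -0.80 for STARD4 to 0.18 for EBP.

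**Figure D3:**
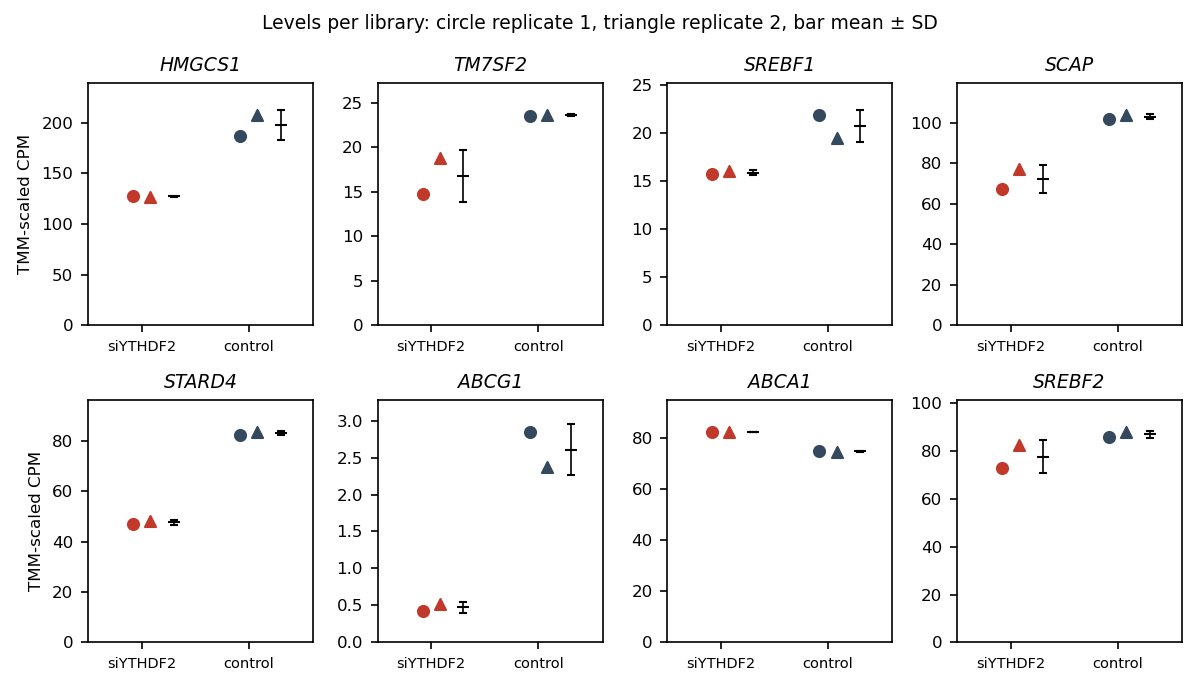
TMM-scaled CPM per library of the 6 genes that fell, and of ABCA1 and SREBF2, which were not called; each panel starts at 0, circles are replicate 1, triangles replicate 2, and the bar beside each pair is the mean ± SD (n = 2). In ABCG1 the siYTHDF2 libraries stand at 0.420 and 0.526 CPM, against 2.85 and 2.37 CPM in the control libraries, while in ABCA1 they stand slightly above the control libraries.

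The LXR targets and exporters did not share a direction. ABCG1, which exports cholesterol to high-density lipoprotein, was counted 20 and 29 times in the siYTHDF2 libraries, against 150 and 128 times in the control libraries. The siYTHDF2 libraries were far below both controls, with means of 0.473 ± 0.0747 CPM in siYTHDF2 and 2.61 ± 0.339 CPM in control (SD, n = 2 each). The log2 fold change reached -2.45 (SE 0.36, 95% interval -3.27 to -1.64, adjusted p = 0.00181), and the call was kept in all 13 alternatives. On the log2(FPKM + 1) scale, which understates the change of low genes, it was -0.34. ABCG1 was the least abundant of the 27 genes, so this change concerns few transcripts. The gene, ENSSSCG00000027745, lies on chromosome 13 from 205561951 to 205628425 on the plus strand in the deposited table.

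ABCA1, which loads cholesterol onto lipid-poor apolipoprotein, stood at 82.1 and 82.3 CPM in the siYTHDF2 libraries, against 74.8 and 74.3 CPM in the control libraries. The groups did not overlap, but the log2 fold change of 0.14 (SE 0.07, 95% interval -0.015 to 0.30) was not called (adjusted p = 0.194). The interval lay wholly above that of ABCG1. Per length, ABCA1 exceeded ABCG1 in FPKM by 98.0-fold and 78.8-fold in the siYTHDF2 libraries, against 13.0-fold and 15.5-fold in the control libraries. The size of these ratios rests on implied lengths of 15827 bases for ABCA1 and 7887 bases for ABCG1. The ratios of the groups did not overlap, and with 2 libraries a group an exact two-sided permutation test of the ratio cannot go below 0.333. MYLIP stood at 2.50 and 2.28 CPM in the siYTHDF2 libraries, against 3.02 and 3.22 CPM in the control libraries. Its groups did not overlap, but the log2 fold change of -0.38 has an interval from -0.94 to 0.18 at this depth of 119 to 174 counts (adjusted p = 0.329).

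Macrophages are rich in ABCG1. Most markers of leukocytes and macrophages were scarce in both groups, but CD14 stood above ABCG1 in every library. PTPRC, which marks leukocytes, stood at 0 and 0.0725 CPM in the siYTHDF2 libraries, against 0 and 0.130 CPM in the control libraries. The 6 markers in the table summed to 6.41 and 5.49 CPM in the siYTHDF2 libraries, against 7.31 and 8.51 CPM in the control libraries, and none of the 4 tested was called in edgeR, with 1 lower at an unadjusted p under 0.05. CSF1R and CD163 were each listed at 0 in 1 siYTHDF2 library and stood below 0.5 CPM in every other library. CD14, the lower one, stood at 4.18 and 2.99 CPM in the siYTHDF2 libraries, against 5.39 and 5.38 CPM in the control libraries. Its log2 fold change was -0.59 (edgeR adjusted p = 0.101). CD68 averaged 1.85 CPM in both groups. The sums were lower in both siYTHDF2 libraries, and their part in the ABCG1 result was not tested.

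**Figure D4:**
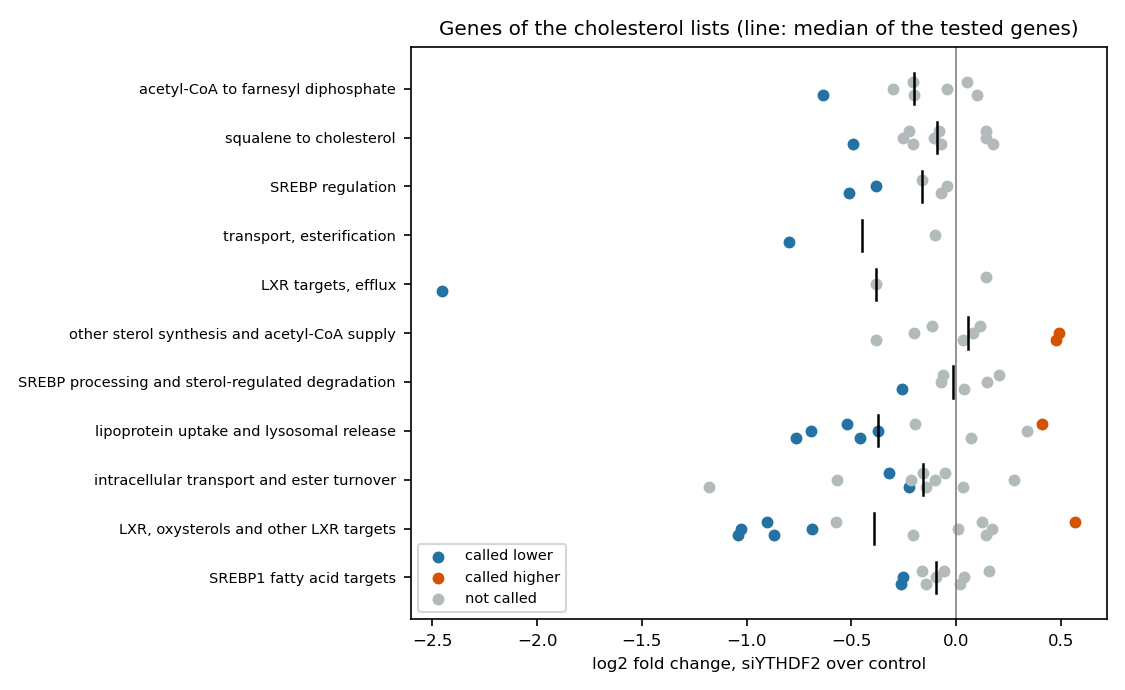
Log2 fold change of siYTHDF2 over control for every tested gene of the 5 role groups and of 6 lists of other cholesterol and lipid genes; blue, called lower; orange, called higher; grey, not called; the black line is the median of the tested genes. The blue points gather in the lists of lipoprotein uptake with lysosomal release and of LXR with oxysterols, at medians of -0.37 and -0.39.

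Other genes of the pathway were read from 6 lists drawn up by pathway, 5 of which are described here. Over all genes tested, 10.6% were lower and 9.05% higher. Calls were most frequent among uptake and lysosomal release genes, where 5 were lower (55.6%) and 1 higher (11.1%) of 9 tested. SCARB1, which takes up cholesterol esters from high-density lipoprotein, stood at 80.8 and 83.1 CPM in the siYTHDF2 libraries, against 141 and 138 CPM in the control libraries (log2 fold change -0.76, SE 0.07, adjusted p = 9.75e-05). LIPA, the lysosomal acid lipase that frees cholesterol from its esters, stood at 91.1 and 92.4 CPM in the siYTHDF2 libraries, against 128 and 135 CPM in the control libraries (log2 fold change -0.52, adjusted p = 0.000886). NPC1, which exports that cholesterol from lysosomes, had a log2 fold change of -0.69 (adjusted p = 0.000442), whereas its luminal partner NPC2 was not called (log2 fold change 0.070, adjusted p = 0.540). The receptor VLDLR had one of -0.46 (adjusted p = 0.00127).

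Of 8 other genes of sterol synthesis and acetyl-CoA supply, LBR and GGPS1 were higher in edgeR (25%, against 9.05% of all genes tested). In the same test 0 were lower, with 2 lower at an unadjusted p under 0.05. GGPS1, which diverts farnesyl diphosphate to geranylgeranyl diphosphate, stood at 44.6 and 45.4 CPM in the siYTHDF2 libraries, against 34.2 and 30.5 CPM in the control libraries (log2 fold change 0.48, adjusted p = 0.00800). The GGPS1 call was kept in 10 of 13 alternatives, and limma on log2(FPKM + 1) was among those that lost it (adjusted p = 0.0722).

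LXR, oxysterol and other LXR-regulated genes gave 5 lower and 1 higher of 12 tested. The shares were 41.7% lower and 8.33% higher, against 10.6% and 9.05% of all genes tested. SMPDL3A, a phosphodiesterase induced by LXR in human macrophages, stood at 17.1 and 16.7 CPM in the siYTHDF2 libraries, against 33.6 and 35.8 CPM in the control libraries (log2 fold change -1.04, SE 0.10, adjusted p = 0.000189). APOE, an apolipoprotein that accepts exported cholesterol, stood at 78.7 and 78.6 CPM in the siYTHDF2 libraries, against 118 and 135 CPM in the control libraries (log2 fold change -0.69, adjusted p = 0.000557). Others of this list were not called: LPCAT3 (log2 fold change 0.0091, adjusted p = 0.970), ABCG4 (0.14, adjusted p = 0.805) and the barely counted ABCG5 (-0.58, adjusted p = 0.737). RXRA, the partner with which LXR binds DNA, had a log2 fold change of -0.87 (adjusted p = 0.00140). The receptor genes went other ways: NR1H2, which encodes LXR beta, stood at 42.7 and 41.1 CPM in the siYTHDF2 libraries, against 28.7 and 27.9 CPM in the control libraries (log2 fold change 0.57, adjusted p = 0.00266), and NR1H3, which encodes LXR alpha, was not called (log2 fold change 0.17, adjusted p = 0.192). CYP27A1 and CH25H, which make the oxysterols that bind LXR, had log2 fold changes of -0.90 (adjusted p = 0.00371) and -1.03 (adjusted p = 0.0427). The CH25H call rested on 55 to 162 counts and was lost in DESeq2 (adjusted p = 0.0910) and without control replicate 1 (adjusted p = 0.0714), control replicate 2 (adjusted p = 0.150) or siYTHDF2 replicate 1 (adjusted p = 0.189).

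Genes of SREBP processing and sterol-regulated degradation had 1 lower and 0 higher of 6 tested (16.7% lower, against 10.6% of all genes tested). The lower one was RNF145, a ubiquitin ligase of the endoplasmic reticulum, with a log2 fold change of -0.26 (adjusted p = 0.0312) that was kept in 6 of 13 alternatives. Genes of intracellular transport and ester turnover had 2 lower and 0 higher of 11 (18.2% lower, against 10.6% of all genes tested). OSBPL8 and OSBPL9, oxysterol-binding protein relatives, had log2 fold changes of -0.32 (adjusted p = 0.0103, kept in 9 of 13 alternatives) and -0.22 (adjusted p = 0.0385, kept in 4 of 13). The higher counts of 0 in these lists held in edgeR at the adjusted threshold, and at an unadjusted p under 0.05 there were 0 higher genes in the first list and 1 in the second.

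Some counts may be shared with overlapping genes, since the sources used here do not say whether strand was used in counting. ACAT2 overlaps TCP1, a chaperonin subunit on the opposite strand, over 3061 bases, and TCP1 was higher (log2 fold change 0.25, adjusted p = 0.0409). FDFT1 overlaps CTSB, a lysosomal protease on the opposite strand, over 4517 bases, and CTSB was lower (log2 fold change -0.24, adjusted p = 0.0319). NSDHL shares 32 bases with CETN2, a centrin on the opposite strand, which was lower (log2 fold change -0.43, adjusted p = 0.0427), and SC5D shares 8349 bases with a same-strand gene that has no symbol in the table. None of the 6 genes that fell overlaps another gene with more than 2 counts in a library.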

How the data were processed

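The authors deposited 1 table with counts and FPKM per gene and library, as named per the file headers. Bowtie 0.12.2 and a mouse build appear in the submitters' processing notes, and the labels' extraction text mentions retinas. Both are at odds with pig gene identifiers, so the aligner, build, annotation and use of strand are not given in the sources used here. Members were matched by symbol, and all 27 pair with the same identifier in the reference table of gene names.

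Counts were tested with edgeR 4.0.16 in R 4.3.3 (expression filter, TMM scaling, robust quasi-likelihood test, group as the only term), with p-values adjusted over 15552 genes at 0.05. The SE of a fold change is its size divided by the root of F. FPKM was used per length and in limma 3.58.1; DESeq2 1.42.0 was an alternative. Intervals (95%) cover the spread between libraries. Replicates differed by more than counting noise, with a chi-square over its degrees of freedom of 14.8 for siYTHDF2 and 14.9 for control, so none was treated as a duplicate of another; whether the spread is biological or technical cannot be told apart.

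The members and lists were chosen with earlier results of these data known. Named genes are all members and, of each pathway list, up to 4 called genes with the smallest p. CYP27A1, CH25H, NPC2, NR1H3, LPCAT3, ABCG4, ABCG5, ACAT1 and NUS1 were named after their values were seen. So were the markers CD14, CD68, ACTA2, TAGLN, STAR, LHCGR, VWF and PECAM1. Some called genes of the uptake list are counted but not reported here by name.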

Additional observations from a re-analysis of the deposited data

How the results depend on the processing

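STARD4 and ABCG1 were called in all 13 alternatives, HMGCS1 and SCAP in 12, TM7SF2 in 9 and SREBF1 in 4; no called member changed direction. The alternatives were median ratio scaling, DESeq2, no filter, a mean count of at least 50, each library left out, the replicate number as a block, edgeR without trend and robust shrinkage, and limma on FPKM with 3 settings; for genes other than the members they were chosen after seeing the data. Without trend and robust shrinkage 61 genes were higher and 213 lower, 2 members were lower and 0 enzymes. In limma 574 genes were higher and 1529 lower on log2(FPKM + 1), and 548 higher and 1463 lower on log2(FPKM + 0.1), against 1408 higher and 1644 lower in edgeR. With 1 library left out, 791 to 1287 genes were higher, 0 to 1 members (EBP, also the range for enzymes), and 4 to 5 members and 1 to 2 enzymes were lower; the lone library is then assumed to vary like the others.

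Members that were not called changed sign as follows. With 1 library left out PMVK ranged over -0.017 to 0.20, IDI1 over -0.047 to 0.16, FDPS over -0.14 to 0.041, FDFT1 over -0.22 to 0.081, NSDHL over -0.17 to 0.0098 and SOAT1 over -0.21 to 0.013. IDI1 stood at -0.015 in limma at both pseudocounts. The cause was not tested.

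The replicate numbers do not pair the libraries by any label. Deviations of same-numbered libraries correlated at -0.148 across genes. With the replicate number as a block 1020 genes were higher and 1361 lower, and 5 members were lower, SREBF1 being lost. With the pairing crossed, a setting chosen after seeing the data and not counted among the 13, 1946 genes were higher and 1996 lower, and 8 members and 4 enzymes were lower. Members under 200 counts (ABCG1, MYLIP) have the widest intervals.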

Other observations

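The deposited KEGG annotation gives a view of the pathway that does not use the chosen members, although it shares 18 of its 38 steroid and terpenoid genes with them. KEGG steroid biosynthesis had 1 higher and 2 lower of 18 tested genes, and terpenoid backbone biosynthesis 1 higher and 3 lower of 20, with a median log2 fold change of 0.0042. KEGG cholesterol metabolism, which also holds apolipoproteins and carriers, had 4 higher and 10 lower of 35 tested genes, with a median log2 fold change of -0.22, against 9.05% higher and 10.6% lower among all genes tested. The cholesterol metabolism genes were counted as a set only. Among the KEGG steroid and terpenoid genes, those that fell beside the members and lists were ACAT1 and NUS1, named after their values were seen. ACAT1, the mitochondrial acetoacetyl-CoA thiolase, stood at 22.5 and 24.3 CPM in the siYTHDF2 libraries, against 32.6 and 36.0 CPM in the control libraries (edgeR log2 fold change -0.55, adjusted p = 0.00648). NUS1, a subunit of the enzyme that makes dolichol precursors, had a log2 fold change of -0.25 (adjusted p = 0.0324), which was kept in 7 of 13 alternatives.

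Fatty acid genes regulated by SREBP1 had 2 lower and 0 higher of 9 tested in edgeR (22.2% lower, against 10.6% of all genes tested). At an unadjusted p under 0.05 there were 3 lower and 1 higher. FADS2, a fatty acid desaturase, stood at 203 and 207 CPM in the siYTHDF2 libraries, against 247 and 243 CPM in the control libraries (log2 fold change -0.25, adjusted p = 0.0196, kept in 6 of 13 alternatives). SCD, the stearoyl-CoA desaturase, stood at 101 and 116 CPM in the siYTHDF2 libraries, against 132 and 129 CPM in the control libraries (log2 fold change -0.26, adjusted p = 0.0466, kept in 5 of 13). Neither call passed when replicate numbers were blocked (adjusted p = 0.0726 for FADS2 and 0.0742 for SCD).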
